A study of Mus musculus with 18 samples.

Results

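This comparison sets livers of wild type (WT) mice against livers of whole-body Fxr KO mice, which lack the farnesoid X receptor (FXR, encoded by Nr1h4) in every tissue, all given GW4064, a synthetic FXR agonist. Its members are the 3 arrays titled for WT with GW4064 and the 3 titled for FXR WB KO with GW4064, 6 of 18 arrays in the series. The other 12 arrays are WT and whole-body KO mice given vehicle and mice with a liver Fxr KO (named AFXR Cre+ as a source) given vehicle or GW4064, with 3 in each of the 6 groups. All mice are labelled as males of 10 to 16 weeks on a C57BL/6J background, and gavage was oral. The labels give 2 doses of 150 mg per kg, in the evening and the next morning, and collection of the liver 2 hours later. The methods, which describe only the WT mice, give 3 doses of 100 mg per kg with an overnight fast, and the values do not settle which was used. No source used here says how the whole-body KO allele was made, whether the WT mice were littermates of the KO mice, or what drives the Cre. The p-values below therefore measure only a spread between arrays, pooled in limma over the 6 groups. Values are log2 expression on the RMA scale, and each difference is WT minus whole-body KO unless said otherwise, with its SE from limma (n = 3 arrays per group). That SE uses the spread within all 18 arrays, so it can understate the spread of the 6 compared where these vary more than the others.

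FXR is a nuclear receptor for bile acids that works with RXR and is abundant in liver and ileum. In liver it induces Nr0b2, which encodes the repressor SHP, and the bile salt exporter gene Abcb11, and bile acid synthesis falls. In the ileum FXR induces Fgf15, a hormone that travels to the liver and also represses bile acid synthesis, so a liver without FXR can still receive an intestinal FXR signal, whereas a mouse without FXR in any tissue cannot.

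The deleted gene set the genotypes apart on every array. Nr1h4 (chromosome 10, 89454234 to 89533645, GRCm38.p6) read 8.99, 8.94 and 9.15 in WT with GW4064 and 4.14, 4.30 and 3.98 in whole-body KO with GW4064. The difference was 4.89 ± 0.14, or 29.6-fold (adjusted p = 1.14e-12), and it was 4.88 with vehicle. Hepatocyte markers were high in both genotypes: Alb read from 14.84 to 14.95 in WT and from 14.87 to 14.97 in KO.

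One KO array stood apart in a way that bears on what follows. On whole-body KO GW4064 replicate 3, the list of male-biased liver genes (10 measured) had a median of -3.89 relative to the WT vehicle mean, against 0.08 and 0.07 on the other KO arrays with GW4064 and -1.36 on WT GW4064 replicate 1, the next lowest. Its median of female-biased genes (12 measured) was 2.36, against 0.12 and 0.11. Hsd3b5, a male-biased steroid enzyme, read 4.91 on that array and 9.03 or more on the other 17. Sult2a2, a female-biased sulfotransferase chosen after its values were seen, read 13.04 there and at most 4.12 elsewhere. The array nonetheless carried Y-linked transcripts, with Kdm5d at 6.37 and Uty at 6.59, inside the ranges of the other arrays. Xist, transcribed from the inactive X in females, was at 5.52, also inside that range. Eif2s3y, another Y-linked gene, was lowest there, at 7.99, with the next lowest, 8.17, on a whole-body KO vehicle array. Its mean correlation with its own group, 0.98711, was the lowest of the 18 arrays. WT GW4064 replicate 1 had the widest spread of relative expression (interquartile range 0.259). WT GW4064 replicate 3 was the only WT GW4064 array with a vehicle array of WT as its nearest array (r = 0.99516). Every whole-body KO GW4064 array also had a vehicle array of its own genotype as its nearest. Results were therefore also computed with each GW4064 array of these genotypes left out in turn.

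**Figure D1:**
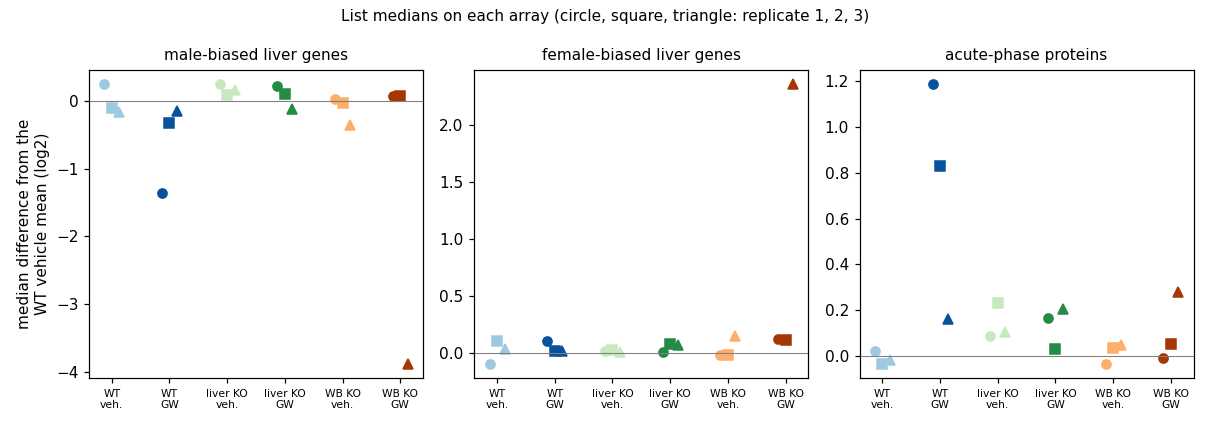
Median difference from the WT vehicle mean (log2, y axis) on each of the 18 arrays for 3 gene lists, by group (x axis; veh., vehicle; GW, GW4064; WB, whole-body). Whole-body KO GW4064 replicate 3 (triangle) lies at -3.89 for male-biased and 2.36 for female-biased genes, and acute-phase genes are highest on WT GW4064 replicates 1 and 2, at 1.19 and 0.83.

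With the agonist present, 249 of 12394 genes were higher in WT and 326 were lower at an adjusted p under 0.05 (2.01% and 2.63% of genes tested). Arrays of the genotypes did not overlap for 239 and 319 of these, and across all genes WT lay wholly above KO for 11.4% and wholly below for 8.40%. Of the called genes, 48 of the higher and 88 of the lower differed by at least 2-fold. Without whole-body KO GW4064 replicate 3 the counts were 201 and 247, of which 146 and 200 were among the genes called with all arrays. Of the 91 called genes chosen for naming, 17 did not pass without that array and 38 did not pass without WT GW4064 replicate 1. The study's own thresholds ask for 1.5-fold with p below 0.05 before adjustment, and with them 177 genes (1.43%) stood higher and 308 (2.49%) lower in WT. The adjusted counts fell to 108 and 154 without WT GW4064 replicate 1, to 159 and 229 without WT replicate 2, and to 136 and 195 without whole-body KO replicate 1. On the 6 arrays alone, with 4 residual degrees of freedom in place of 12, the counts were 28 and 41.

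The widest gap among genes lower in WT was in bile acid synthesis. Cyp7a1, the rate-limiting enzyme of the classical pathway, read 5.82, 7.18 and 10.19 in WT and 12.26, 11.19 and 11.17 in whole-body KO. Every WT array lay below every KO array, although WT replicate 3 was close to the vehicle level of 10.44 to 10.75. The difference was -3.81 ± 0.69 (14.1-fold lower in WT, adjusted p = 0.00426), and without KO replicate 3 it was -4.0. Cyp8b1, the 12-alpha hydroxylase that directs synthesis to cholic acid, read 8.12, 9.79 and 10.46 in WT and 12.56, 12.48 and 11.77 in KO. It was 7.03-fold lower in WT (-2.81 ± 0.42, adjusted p = 0.000955). The other 16 of the 18 measured genes of the list did not pass, among them Cyp27a1 (0.04) and the conjugating enzyme Baat (-0.13). Of all genes, 2.63% passed as lower. Cyp7b1 was at 0.79, with its low KO value, 9.39, on replicate 3, and without that array the direction turned (-0.27, adjusted p = 0.73).

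Csad, which makes hypotaurine for taurine conjugation of bile acids, followed the same order. It read 8.14, 8.59 and 9.49 in WT and 10.49, 11.52 and 11.40 in KO, with no overlap. WT was 5.26-fold lower (-2.40 ± 0.30, adjusted p = 0.000262). None of the other 12 measured genes of taurine and sulfur amino acid metabolism passed, including Cdo1 (-0.04), the step before Csad. Of all genes, 2.63% passed as lower.

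Nr0b2 ran the opposite way. It read 10.84, 9.59 and 9.04 in WT and 8.04, 7.77 and 7.04 in KO, and WT was 4.61-fold higher (2.20 ± 0.34, adjusted p = 0.00137; 1.92 without KO replicate 3, adjusted p = 0.00739). With vehicle the difference was -0.39 (adjusted p = 0.671). Of 15 genes for FXR, its partners and the SHP and FGF15 pathway, 4 were higher in WT and 0 were lower: Nr1h4, Nr0b2, Mafg (0.58), a small Maf repressor, and Hnf4a (0.43), a hepatocyte transcription factor. Without KO replicate 3, 3 of them passed, Hnf4a no longer among them, and without WT replicate 1, 2 did. Of all genes, 2.01% were called higher and 2.63% lower with all arrays. Fgf15 read 4.24 to 4.70 over the 6 arrays, near the low end of the scale in liver, and its difference was 0.14 ± 0.11 (adjusted p = 0.55).

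**Figure D2:**
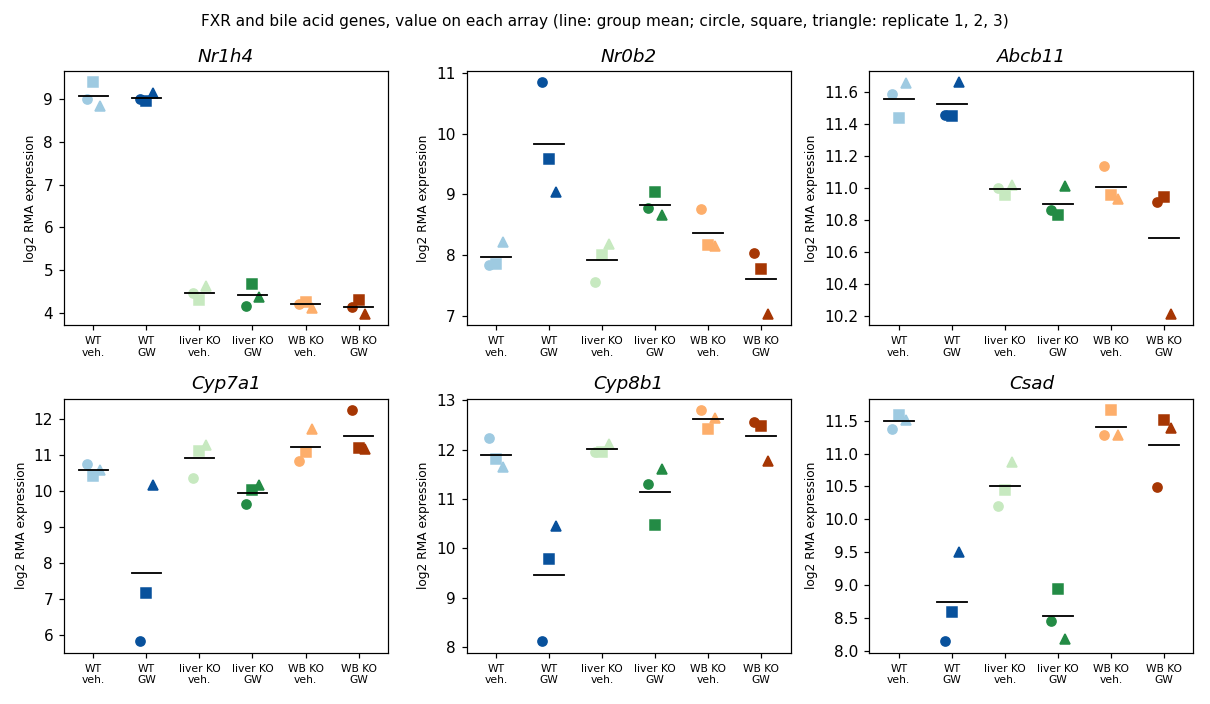
Log2 RMA expression (y axis, which does not start at 0) of 6 genes on each array by group (x axis; veh., vehicle; GW, GW4064; WB, whole-body; n = 3), with the group mean as a line. With GW4064, Cyp7a1, Cyp8b1 and Csad are lower and Nr0b2 and Abcb11 are higher in WT than in whole-body KO on every array, and Csad in liver KO lies at 8.17 to 8.94, near WT.

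Among transporters, Abcb11, the canalicular bile salt exporter, read 11.46, 11.45 and 11.66 in WT and 10.91, 10.94 and 10.21 in KO. The genotypes did not overlap, and WT was 1.78-fold higher (0.83 ± 0.14, adjusted p = 0.00284). The other 13 measured transporter genes did not pass (2.01% of all genes passed as higher). Slc51a, a subunit of the basolateral bile salt exporter, was near the low end of the scale, at 4.31 to 4.51 in WT and 4.14 to 4.51 in KO.

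FXR with RXR binds an inverted repeat of AGGTCA half-sites with 1 base between them, so the promoter windows in RefSeq (GRCm38.p6; 250 bases before to 50 after each start) were searched on both strands for AGGTCA and TGACCT with any 1 base between them. The motif is its own reverse complement, so each match counts once. Of 12394 genes, 9888 had a window. No window held an exact match, 10 (0.101%) held one with at most 1 mismatch and 125 (1.26%) one with at most 2. Among genes higher in WT, 2 of 200 (1.0%) and 6 of 200 (3.0%) did, and among genes lower in WT, 0 of 256 did at either limit. The pair with 1 mismatch are Abcb11 and Saa4, a constitutive serum amyloid A. Their windows are shown with the match in capitals (Abcb11, chr2:69342567-69342866, minus strand; Saa4, chr7:46732554-46732853, minus strand), because they carry the closest matches among the called genes.
Abcb11: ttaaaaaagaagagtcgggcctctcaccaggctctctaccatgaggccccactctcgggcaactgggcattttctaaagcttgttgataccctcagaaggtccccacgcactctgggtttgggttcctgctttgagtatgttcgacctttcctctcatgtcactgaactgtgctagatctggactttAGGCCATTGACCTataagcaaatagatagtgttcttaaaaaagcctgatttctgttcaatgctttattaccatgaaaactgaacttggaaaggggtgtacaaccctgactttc
Saa4: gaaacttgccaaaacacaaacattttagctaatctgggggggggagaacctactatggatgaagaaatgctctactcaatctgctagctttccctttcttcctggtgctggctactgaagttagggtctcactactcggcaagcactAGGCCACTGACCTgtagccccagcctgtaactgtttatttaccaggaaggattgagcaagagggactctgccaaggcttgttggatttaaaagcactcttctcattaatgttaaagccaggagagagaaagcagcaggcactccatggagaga
The match begins at -63 from the start in Abcb11 and at -103 in Saa4. Saa4 read 13.21, 13.14 and 12.48 in WT and 11.98, 12.08 and 11.88 in KO (0.96 ± 0.21, adjusted p = 0.0125, limma), and it did not pass without WT replicate 1. With at most 2 mismatches the others were Herpud1 (TGGACACTGACCT), Homer2 (AGATCAGGGACCT), Itih3 (AGGTCCTTGACCC) and Slc20a1 (AGGACTCTGACCT), each also higher in WT, and Herpud1 did not pass without KO replicate 3 (adjusted p = 0.134). A match of letters is not a measured binding site, and no binding was measured in these arrays.

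The list of textbook FXR targets (22 measured) overlaps those above, since it holds Nr0b2, Abcb11 and Mafg. It was chosen, with Rarres2 and Mme in it, when earlier results of these data were known. It had 7 members higher in WT and 1 lower (2.01% and 2.63% of all genes were), with a median of 0.21 against 0.02 over all genes. Without KO replicate 3 the counts were 8 and 1. Without WT replicate 1 they were 5 and 1. Osgin1, an oxidative stress and growth inhibitor gene, was higher (1.30), as were Scarb1, the HDL receptor (0.69), and Apoc2, a cofactor of lipoprotein lipase (0.69). Rarres2, which encodes chemerin, read 12.26, 12.39 and 12.61 in WT and 10.83, 10.81 and 10.09 in KO, a 3.58-fold difference. Pdk4, a fasting-induced kinase that restrains pyruvate oxidation, was the member that was lower, at 4.36, 4.59 and 5.10 in WT and 6.47, 6.52 and 6.48 in KO (-1.81 ± 0.23, adjusted p = 0.00028). Mme, a membrane peptidase, had a large difference with vehicle (3.11, adjusted p = 0.0069) and 1.81 with GW4064 (adjusted p = 0.057). It passed with GW4064 without KO replicate 3 (2.20, adjusted p = 0.036) and without WT replicate 1 (2.64, adjusted p = 0.00137).

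A separate list holds genes that the study's supplement names in selected categories as bound by FXR in mouse liver, which is only a part of the bound genes. Of 271 measured, 20 were higher and 21 lower in WT, or 7.38% and 7.75% against 2.01% and 2.63% of all genes, with a median of 0.03 against 0.02. Without KO replicate 3, 23 and 11 passed, and without WT replicate 1, 13 and 9 did. Called members ran both ways: Hal, Adh4 and Saa4 were higher, and Cyp7a1, Fabp5 and Csad lower.

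To see which differences exist without the agonist, the same genotypes were compared with vehicle, on arrays that enter neither group above. There 67 genes were higher in WT (0.541%) and 74 were lower (0.597%). Of these, 34 and 42 were called the same way with GW4064, which is 13.7% and 12.9% of the GW4064 calls and 50.7% and 56.8% of the vehicle calls, and 0 were called the opposite way. In sign, 65 of the 67 and 70 of the 74 vehicle calls lay on the same side with GW4064. Of the GW4064 calls, 86.3% of the higher and 90.8% of the lower lay on the same side with vehicle, against 53.4% and 46.6% of all genes. Their median was smaller with vehicle, 0.23 and -0.28, than with GW4064, 0.57 and -0.69, the contrast on which they were chosen.

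Genes called in both states were named by size. Rarres2 differed by 1.91 with vehicle and 1.84 with GW4064, and the interaction was -0.07 (adjusted p = 0.97). Cyp17a1, a steroid hydroxylase with female-biased expression in mouse liver, read 9.17, 7.23 and 7.63 in WT and 10.37, 9.46 and 11.51 in KO with GW4064. It was lower in WT by 2.44 on the log2 scale with GW4064 and by 2.69 with vehicle, and without KO replicate 3 the GW4064 difference did not pass (-1.91, adjusted p = 0.066). Igfbp3, a carrier of insulin-like growth factors, read 4.63, 5.26 and 5.14 in WT against 7.86, 7.62 and 7.30 in KO (-2.58 ± 0.28, adjusted p = 6.37e-05). Gdf10, a TGF-beta family ligand, read 4.84, 5.78 and 5.33 against 7.68, 6.97 and 7.57. Sgk1, a serum and glucocorticoid regulated kinase, was 4.79-fold lower in WT, with its highest value, 10.97, on KO replicate 3, and 3.13-fold lower without it (adjusted p = 0.00107).

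**Figure D3:**
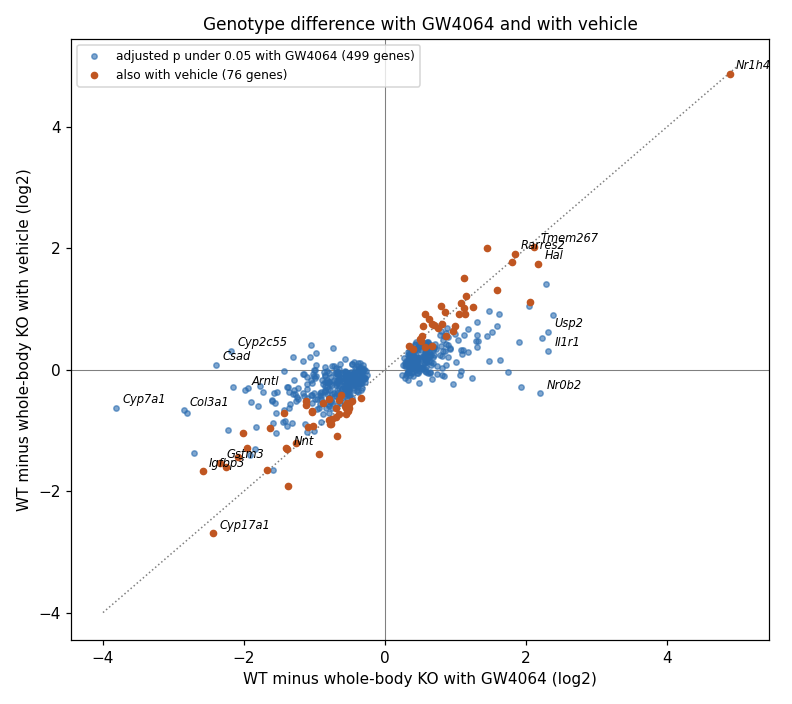
WT minus whole-body KO difference (log2) with GW4064 (x axis) and with vehicle (y axis) for the 575 genes at adjusted p under 0.05 with GW4064; the dotted line marks equal differences. Of the labelled genes, Nr1h4 and Rarres2 lie near that line, whereas Csad, Il1r1 and Nr0b2 lie at 0.08, 0.31 and -0.39 on the vehicle axis.

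Whether a gap differed between the agonist and vehicle states was tested directly as an interaction. In limma, 0 of 12394 genes passed (0%), the smallest adjusted p was 0.193, and 1017 genes had an unadjusted p under 0.05. The smallest p-values among the called genes belonged to Csad (-2.48 ± 0.43), Usp2 (1.69 ± 0.30) and Nr0b2 (2.59 ± 0.48), each at adjusted p = 0.193, and to Samd4, Bicc1 and Col4a1. Csad, which had the smallest of these p-values, was at 11.38 to 11.59 in WT and 11.28 to 11.66 in KO with vehicle. Its genotypes overlapped there and did not overlap with GW4064, but its interaction did not pass. With each GW4064 array of these groups left out in turn, 0 genes passed without WT replicate 1, without WT replicate 2, and without whole-body KO replicate 2 or replicate 3. Csad alone passed without whole-body KO replicate 1, and 16 genes with a higher and 6 with a lower difference passed without WT replicate 3, so a call for an interaction depends on which array is left out.

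Acute-phase genes, which the liver makes under IL-1 and IL-6, lay above 0 for 22 of 24 measured (6936 of all 12394 genes did). Of the 24, 5 passed, all higher in WT (2.01% of all genes), with a median of 0.44 against 0.02 over all genes. WT arrays lay wholly above KO arrays for 2 of the 24, against 11.4% of all genes. The spread among the WT arrays was wide: Serpina3n, a serine protease inhibitor, read 13.54, 12.91 and 10.89 in WT and 10.54, 10.47 and 11.09 in KO (1.75 ± 0.44, adjusted p = 0.032), with WT replicate 3 inside the KO range. Saa2, an inducible serum amyloid A, read 14.54, 14.29 and 10.34 against 9.89, 10.12 and 11.78 and did not pass (adjusted p = 0.12). Lcn2, lipocalin 2, read 13.65, 12.91 and 8.22 against 9.78, 8.52 and 11.94 (1.51 ± 1.05, adjusted p = 0.48). Both genes were highest on WT replicates 1 and 2, and KO replicate 3 lay above the other KO arrays. Without KO replicate 3, 6 members passed, and without WT GW4064 replicate 1, 0 did. Neutrophil markers (0 of 9 called) had summed linear signals of 261 to 614 in WT and 251 to 280 in KO, and their part in this result was not tested.

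Il1r1, the signalling receptor for IL-1, was the clearest gene of that pathway. It read 10.82, 10.42 and 9.15 in WT and 7.72, 8.09 and 7.63 in KO, and WT was 4.98-fold higher (2.32 ± 0.31, adjusted p = 0.000435; 2.23 without KO replicate 3). Tifa, an adaptor of TRAF signalling, read 10.11, 9.09 and 7.71 against 6.71, 6.83 and 6.23 (2.38 ± 0.40, adjusted p = 0.00252). In both genes WT replicate 3 was the lowest WT array and still lay above every KO array. The other 24 measured genes of IL-1, IL-6 and NF-kB signalling did not pass, Socs3 among them (1.94, adjusted p = 0.092), and without KO replicate 3 the list had 2 higher and 1 lower. Complement and coagulation genes lay above 0 for 29 of 31 (6936 of all 12394 genes did), with 3 higher in WT, Hc (complement C5, 0.50), Cfb (0.49) and F7 (0.37), and 1 lower, F11 (-0.51). These 3 and 1 are 9.68% and 3.23% of the list, against 2.01% and 2.63% of all genes. Without WT replicate 1 the counts were 1 and 0.

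Genes of stellate cells, fibroblasts and their matrix held the most genes lower in WT of the function and marker lists. Of 19 markers measured, 19 lay below 0 (5458 of all 12394 genes did), with a median of -1.02 against 0.02 over all genes. WT arrays lay wholly below KO arrays for 15 (8.40% of all genes), and 11 passed as lower (2.63% of all genes). The same 11 passed without KO replicate 3, and 11 passed without WT replicate 1. Col3a1, a fibrillar collagen, read 5.37, 7.55 and 7.40 in WT and 9.50, 9.20 and 10.19 in KO, a 7.24-fold difference (-2.86 ± 0.45, adjusted p = 0.00146). Pdgfrb, a receptor on stellate cells and pericytes, read 5.31, 5.18 and 5.06 against 6.6, 6.39 and 6.87 (-1.43 ± 0.16, adjusted p = 0.000103). Col1a2, Sparc, Vim, Rgs5, Lum, Col14a1, Pdgfra, Col1a1 and Dcn also passed, at -0.96 to -1.61. Members that did not pass include defining genes of quiescent stellate cells, Lrat and Des. Lrat, the retinol esterifying enzyme, was at 3.92 to 4.15 in WT and 4.07 to 4.19 in KO. That is about the level of the deleted Nr1h4 in KO (3.98 to 4.30), so these values cannot show whether Lrat differed. Des was at 5.54 to 5.85 in WT and 5.60 to 5.96 in KO. Acta2, smooth muscle actin, did not pass either (-0.58, adjusted p = 0.27).

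**Figure D4:**
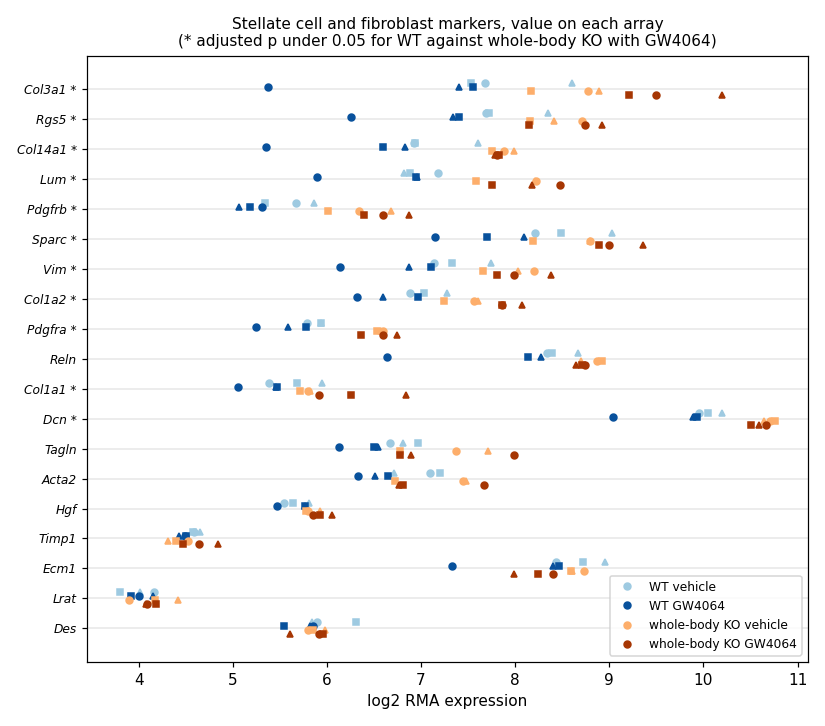
Log2 RMA expression (x axis) of 19 stellate cell and fibroblast markers (y axis) on each WT and whole-body KO array, with vehicle and with GW4064 (circle, square and triangle are replicates 1, 2 and 3). For the 11 genes with an asterisk every WT GW4064 array lies below every whole-body KO GW4064 array.

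The summed linear signal of these markers was 1699 to 3121 in WT and 5045 to 6340 in KO with GW4064, and 3427 to 4538 and 4808 to 5609 with vehicle. Every WT sum with GW4064 lay below every WT sum with vehicle, while the KO ranges overlapped. With vehicle only Pdgfra and Pdgfrb of the named members passed. Endothelial markers were also on the low side in WT, 19 of 20 below 0, but 1 passed, Lyve1 (-1.24; 3 members without KO replicate 3, 0 without WT replicate 1), and their sums were 2318 to 3607 in WT and 3262 to 4047 in KO. In macrophage markers 1 of 16 passed (Mpeg1, -1.10), in hepatocyte markers 2 of 10 were higher (Asgr2, 0.55; Hnf4a), and lymphocyte, cholangiocyte and erythroid markers had 0 called. The hepatocyte count was 1 without KO replicate 3 and 0 without WT replicate 1. Of all genes, 2.01% were called higher and 2.63% lower. The single endothelial and macrophage calls are 5% and 6.25% of their lists. In whole liver, more cells of a type and more RNA per cell cannot be told apart. Genes outside the list with the same direction include Col4a1, a basement membrane collagen (-1.14), Gdf10 and Igfbp3 above, and Timp3, an inhibitor of matrix metalloproteinases (-1.39).

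Lipogenic genes lay mostly below 0. Of 25 genes of fatty acid and triglyceride synthesis, 23 lay below 0 and 6 passed, all lower in WT, with a median of -0.62. Over all genes, 2.63% passed as lower and the median was 0.02. Elovl6, which elongates palmitate, read 7.16, 7.73 and 9.28 in WT and 10.10, 9.21 and 9.59 in KO (-1.57 ± 0.39, adjusted p = 0.027), and WT replicate 3 overlapped the KO range. Acss2 (-1.32), Acacb (-1.14), Elovl5 (-0.94), Fads2 (-0.85) and Scd1 (-0.69) passed with non-overlapping arrays, and Fasn, fatty acid synthase, was at -1.34 (adjusted p = 0.053). Without KO replicate 3, 6 members passed, which no longer included Elovl6, Fads2 or Scd1, and without WT replicate 1, 0 did. Fabp5, a fatty acid binding protein, was 6.51-fold lower in WT, at 8.34, 9.79 and 9.17 against 11.78, 12.13 and 11.50. Cholesterol synthesis had 0 of 19 called, with a median of -0.40.

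In glucose metabolism, Igfbp1, which insulin represses, read 9.27, 9.91 and 10.49 in WT and 12.13, 11.81 and 12.42 in KO (-2.23 ± 0.44, adjusted p = 0.00702). G6pc, glucose-6-phosphatase, read 9.38, 10.37 and 11.37 against 12.46, 12.34 and 12.01 (-1.89 ± 0.34, adjusted p = 0.00403). Both were lower in WT on every array, and WT replicate 1 was the lowest. Pck1, the other gluconeogenic enzyme of the list that passed, was higher in WT (0.61), and it did not pass without KO replicate 3 (adjusted p = 0.0509) or without WT replicate 1. Among 32 genes of fatty acid oxidation and PPARalpha targets, 1 was higher (Creb3l3, 0.61) and 3 were lower: Pdk4, Acot1 (-1.53) and Ehhadh (-0.86). These are 3.12% and 9.38% of the list, against 2.01% and 2.63% of all genes. Ehhadh did not pass without KO replicate 3 (adjusted p = 0.127), and without WT replicate 1 the counts were 0 higher and 2 lower.

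Among detoxification genes, glutathione transferases lay below 0 for 19 of 20, with 5 called lower and a median of -0.45. Over all genes, 2.63% were called lower and the median was 0.02. Gstm3 read 9.58, 10.36 and 11.23 in WT and 12.56, 12.24 and 13.38 in KO (-2.34 ± 0.35, adjusted p = 0.000955), and Gstm2 read 9.21, 9.13 and 9.25 against 10.62, 10.21 and 10.90. The gap of Gstm2 was larger with vehicle (-1.91) than with GW4064 (-1.38), and its interaction did not pass (adjusted p = 0.60). Gsta2, Gstm7 and Gstm1 did not pass without KO replicate 3, which left 2 members, and 2 passed without WT replicate 1. These transferases are close paralogs, and probe sets may share signal between them. NRF2 antioxidant genes had 0 higher and 3 lower of 14, Pgd (-1.11), Ugdh (-0.89) and Tkt (-0.58). Cyp2c55 (-2.18) and Cyp2c68 (-1.03) were the called Cyp2c genes, and Cyp2c55 did not pass without KO replicate 3 (adjusted p = 0.16).

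In the circadian clock, Arntl and Usp2 separated the genotypes on every array of the agonist groups. Arntl, the core activator BMAL1, read 6.35, 6.23 and 6.03 in WT and 8.00, 8.17 and 8.39 in KO, 3.95-fold lower in WT (-1.98 ± 0.25, adjusted p = 0.000231), and its partner gene Npas2 was at -1.27. Usp2, a deubiquitinase with strong daily rhythm, read 9.24, 9.72 and 9.57 against 7.46, 7.2 and 6.92 (2.32 ± 0.22, adjusted p = 2.73e-05). Per2 (1.09) and Tef (0.90) were also higher in WT, which gave 3 higher and 2 lower of 20. These are 15% and 10% of the list, against 2.01% and 2.63% of all genes. Per2 did not pass without KO replicate 3 (adjusted p = 0.0867), and without WT replicate 1 the counts were 5 and 2. With vehicle the differences were -0.33 for Arntl and 0.63 for Usp2, neither past the threshold. The clock genes vary with the hour of collection, and the hour per mouse is not given in the sources used here, so its part was not tested.

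Genes of histidine breakdown were higher in WT, and Hal and Amdhd1 lie near Nr1h4. Hal, histidine ammonia-lyase, read 11.52, 11.18 and 11 in WT and 8.51, 8.96 and 9.69 in KO (2.18 ± 0.26, adjusted p = 0.000157), Amdhd1 differed by 1.08, and Ftcd, a later step of the pathway, by 0.75. All these passed with vehicle as well. Kmo (0.86) and Prodh (0.68) of other amino acid pathways brought the count to 5 higher and 0 lower of 20. Hal starts at 93488768 and Amdhd1 at 93523338 on chromosome 10, 4.03 and 4.07 Mb from the start of Nr1h4, and Ftcd is not among the neighbours. Of 160 measured genes within 10 Mb of Nr1h4, 6 were higher and 5 lower in WT, Lum, Dcn and Timp3 among the latter. These are 3.75% and 3.12%, near the 2.01% and 2.63% of all genes, and without WT replicate 1 the counts were 2 and 4. DNA that travelled with the knockout allele and the loss of FXR cannot be told apart for these genes.

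A marker of the strain also differed. Nnt, a mitochondrial transhydrogenase gene that carries a deletion in C57BL/6J mice, read 8.54, 8.58 and 8.61 in WT and 9.82, 9.92 and 10.15 in KO with GW4064 (-1.38 ± 0.27, adjusted p = 0.00611). The gap was -1.31 with vehicle, although all mice are labelled C57BL/6J. Tmem267, which starts 0.15 Mb from Nnt on chromosome 13, read 6.99, 7.28 and 6.89 against 4.58, 4.34 and 5.88 (2.12 ± 0.34, adjusted p = 0.00191) and differed by 2.03 with vehicle. It was the one gene called of 39 measured near Nnt, a window chosen after its values were seen. Strain background and the loss of FXR therefore cannot be told apart here. This holds for gaps present in both states and for gaps seen only with GW4064.

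**Figure D5:**
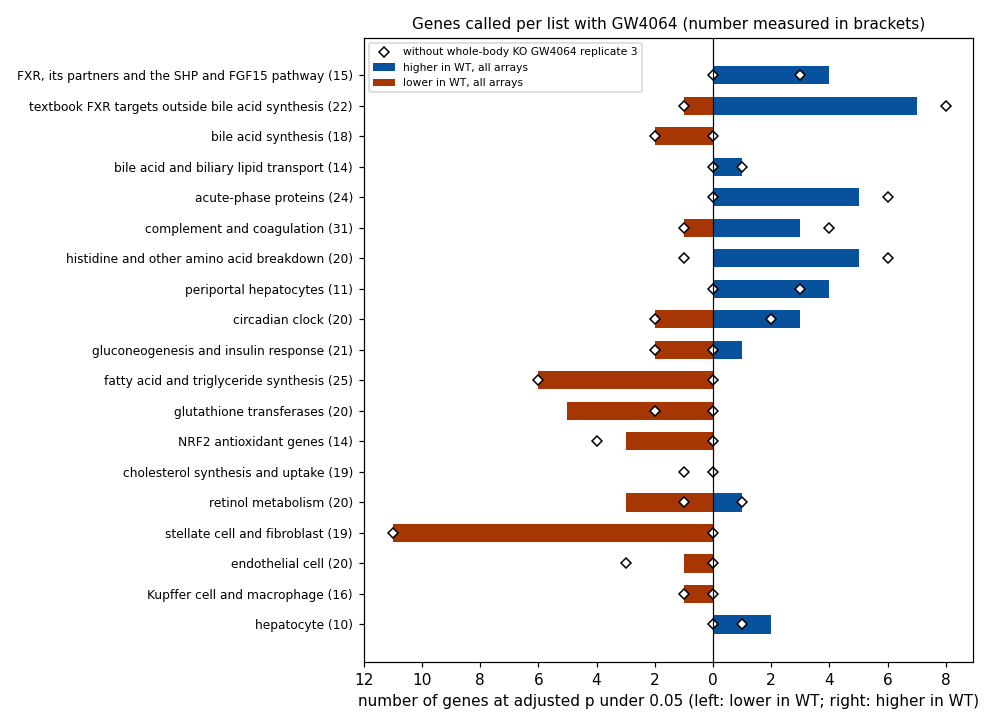
Number of genes per list (x axis, to the left lower and to the right higher in WT) at adjusted p under 0.05 with GW4064, with all arrays (bars) and without whole-body KO GW4064 replicate 3 (diamonds); brackets give the genes measured. Stellate cell and fibroblast markers, 11 of 19 lower, and fatty acid and triglyceride synthesis, 6 of 25 lower, are unchanged in number, and glutathione transferases go from 5 to 2.

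Livers of the liver Fxr KO with GW4064, whose label places the loss of FXR in the liver, were set beside the whole-body KO arrays. Nr1h4 read 4.17, 4.69 and 4.37 in them. Liver KO differed from whole-body KO with 89 genes higher (0.718%) and 134 lower (1.08%), and without whole-body KO GW4064 replicate 3 with 32 and 74. Csad was the clearest: liver KO read 8.45, 8.94 and 8.17, within 8.14 to 9.49 of WT, and lay below whole-body KO by -2.61 ± 0.30 (adjusted p = 0.00076). Arntl followed it, at 6.25, 5.88 and 6.44 in liver KO (-2.0 against whole-body KO, adjusted p = 0.00076), and so did Dnase2a, a lysosomal nuclease (-1.98, adjusted p = 0.0119). With vehicle, Csad was already lower in liver KO, at 10.21, 10.45 and 10.88, than in whole-body KO, at 11.29, 11.66 and 11.28. That vehicle gap was not tested. Usp2 read 8.50, 8.85 and 8.93 in liver KO with GW4064, above whole-body KO by 1.57 (adjusted p = 0.00171). In contrast, Hal, Rarres2, Tmem267 and Abcb11 differed between liver KO and whole-body KO by 0.18, -0.03, 0.34 and 0.21, none past the threshold. Cyp7a1 read 9.64, 10.04 and 10.17 and Cyp8b1 11.30, 10.48 and 11.61 in liver KO, below every whole-body KO array, but neither difference passed (-1.59, adjusted p = 0.29; -1.14, adjusted p = 0.19). Nr0b2, at 8.78, 9.04 and 8.66, lay above whole-body KO by 1.21 (adjusted p = 0.0847). Of 19 genes of cholesterol synthesis, 10 were lower and 0 higher in liver KO than in whole-body KO, with a median of -1.07. Their summed linear signal was also lower with vehicle, at 18100 to 26816 in liver KO and 38334 to 44911 in whole-body KO.

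Across the 37 function lists, 9 had called genes only higher in WT, 14 only lower, 6 both and 8 none. Over all genes, 2.01% were called higher and 2.63% lower. The 14 include the strain marker Nnt, counted as a list of 1 gene. They also include lists near the share of all genes, such as other nuclear receptors (1 of 27, 3.7%). The lists with none were the urea cycle, chemokines and adhesion molecules, metallothioneins, cholesterol synthesis, male-biased genes, PXR and CAR with the Cyp2b and Cyp3a genes, purine breakdown and the cell cycle. In periportal hepatocyte genes 4 of 11 were higher, Hal, Ctsc (1.32), Pigr (1.25) and Pck1, and in pericentral genes 1 of 14 was lower, Rhbg (-0.76), and 0 were without WT replicate 1. Retinol metabolism had 1 higher, Adh4 (1.29), and 3 lower of 20, Rdh11 (-1.43), Rarb (-1.03) and Rdh16 (-0.87), but 1 was lower without KO replicate 3 and 0 without WT replicate 1. Of 13 hepcidin and iron genes, Hamp2 (-1.91) and Hfe (-0.38) were lower, and Hfe did not pass without KO replicate 3 (adjusted p = 0.0822) or without WT replicate 1. Among female-biased genes 1 of 12 was lower, Cyp17a1, and 0 passed without KO replicate 3. Ces1g, a carboxylesterase, was 1 of 9 called in its list (1.45), and it was lower in liver KO than in whole-body KO (-1.65, adjusted p = 0.01). The remaining genes named by size were, higher in WT, Ak4 (2.06), Slc22a7 (2.28), Nox4 (2.23), Obp2a (2.04), Olig1 (1.80) and Cnmd (1.63), and, lower in WT, Prss23 (-2.01). Slc22a7, Nox4 and Cnmd had their lowest values, 5.06, 4.51 and 4.01, on KO replicate 3, and without it they stood at 1.59, 1.12 and 1.09, with Cnmd not past the threshold (adjusted p = 0.097).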

How the data were processed

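Liver RNA of 18 mice was measured on 18 arrays in 6 groups of 3. The authors normalized them with RMA (version not given in the sources used here) and deposited log2 expression per probe set, with array medians over all probe sets of 5.96 to 6.00, and no further scaling was applied. RMA corrects background, normalizes by quantiles and summarises probes, so a change shared by most genes would be removed. The methods name another array type than these probe sets belong to. Gene names came from the annotation of the platform: 20393 of 22690 probe sets have 1 symbol, 691 several and 1606 none, and 20364 matched GRCm38.p6. A gene with several probe sets (4958 of 12394) took the probe set of highest mean over the arrays. No detection call was used, and no column of another series was present.

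Differences were tested with limma 3.58.1 (R 4.3.3) with a mean for each group over all 18 arrays and 12 residual degrees of freedom. Two-sided p-values received a Benjamini-Hochberg adjustment across every gene tested, and an adjusted p under 0.05 counts as a call. The script was tested on simulated data. Gene lists were described by counts and medians, with no set test. The number of arrays limits the precision. Named genes were Nr1h4, the 14 largest differences each way among called genes whose arrays did not overlap (predicted genes passed over), Nr0b2, Cyp7a1, Cyp8b1, Csad, Abcb11, Slc51a, Fgf15 and Nnt, up to 4 called genes per list, and the 6 called genes with the smallest interaction p; Xist, Y-linked genes, Sult2a2, Homer2, Slc20a1 and uncalled list members were named after their values were seen. The comparison, lists and rules were chosen with earlier results of these data known. Alternatives were the 6 arrays alone, weights per array, a robust prior with a trend, quantile normalization, median centring, a filter on dim genes, all probe sets, their mean, a replicate block, the methods' t-test and each array left out. Figures were drawn with matplotlib 3.10.9 in Python 3.11.15.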

Additional observations from a re-analysis of the deposited data

How the results depend on the processing

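With 249 genes higher and 326 lower in WT, median centring, quantile normalization, array weights, a trended and robust prior, the filter on the 40% dimmest genes and both other treatments of probe sets moved each adjusted count by less than 1.5 times. The 6 arrays alone gave 28 and 41, and leaving out 1 array gave 108 to 365 and 154 to 422. Leaving out both WT GW4064 replicate 1 and whole-body KO GW4064 replicate 3, chosen after seeing the data, gave 94 and 106. At the study's thresholds (177 and 308) leaving out 1 array gave 150 to 240 and 239 to 398, every probe set gave 468 lower, and the methods' t-test gave 96 and 157, of which 1 and 0 remained after Benjamini-Hochberg adjustment. The vehicle counts were 92 and 101 without whole-body KO GW4064 replicate 3. Deviations of same-numbered WT and whole-body KO GW4064 arrays correlated at r = -0.19, 0.08 and -0.23, and those of other numbers at -0.15 to 0.24. With 3 arrays in each of 2 groups, this cannot exclude a shared batch. Each whole-body KO GW4064 array was nearest to the same-numbered vehicle array of its genotype, and the reverse held only for replicate 2. The replicate block gave 279 and 360, and 1 and 1 for the interaction, which had 0 and 0. Of 91 named genes called, 0 reversed in any setting that measured them; 22 kept their call with the 6 arrays alone and 53 to 91 in the others. The cause of these changes was not tested.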
